A study of Mus musculus with 4 samples.

Results

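Potassium channel genes were taken from the deposited count table as all genes whose mouse symbol starts with Kcn followed by a lower-case letter. The rule used names only and no measured value. It found 72 of the 12700 genes, in 18 subfamilies by the letter after Kcn. Of the 72, 25 encode voltage-gated pore subunits, 8 silent voltage-gated subunits, 11 inward rectifiers, 9 two-pore channels, 4 calcium-activated and 2 sodium-activated pore subunits, and 13 encode accessory proteins that form no pore.

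Potassium channels let potassium ions leave or enter the cell and so set the resting potential, end the action potential and limit repetitive firing. Voltage-gated channels open on depolarisation, whereas inward rectifiers and two-pore channels act near rest and, in glia, take part in clearing extracellular potassium. Silent subunits make no channel alone and join other voltage-gated subunits, and accessory subunits change gating or traffic of the pores they bind. In brain, each neuron class expresses its own set of these genes.

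The study compared Ids-ko mice (genotype Ids-/-), in which the X-linked gene for iduronate 2-sulfatase is disrupted (a model of Hunter syndrome), with wt littermates, all C57BL/6 and 9 months old. RNA of 7 mice was pooled for each of the conditions CxH (Ids-ko) and CxWT (wt) from cerebral cortex (Cx), and MH (Ids-ko) and MWT (wt) from midbrain, diencephalon (which in this dissection held the striatum too) and hippocampus (M), with 1 library per condition. Both areas came from the same mice. Because there were no replicate libraries, every test below compares libraries and not the conditions. Each compares 2 libraries, apart from 1 fit over all 4, which has no replicate mice either.

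Counts are deposited reads per gene. RPM scales them by the aligned reads of the library, per 1000000 reads. Ratios in Cx are those of CxH to CxWT, ratios in M those of MH to MWT, and ± marks the counting error (standard error) of a log2 ratio. Genes were called at a log2 ratio of 0.7 or more in size and a p-value under 0.05 in a Poisson likelihood ratio test. Reads on genes were 16380080 to 23475080 per library, and members took 0.490% to 0.592% of them. Single members had 19 to 20618 reads in a library, 59 had at least 100 reads in every library and 3 had fewer than 100 in every library, so that the largest counting error of a member's ratio in Cx or M was 0.41.

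The libraries did not follow their labels in 2 respects. Ids had 5211 reads in CxH and 13752 in MH, and 11890 in CxWT and 4496 in MWT, with a log2 ratio of -1.39 ± 0.024 in Cx but 1.24 ± 0.025 in M, so the library labelled MH held more Ids reads than the library labelled MWT. Of 12 cortical excitatory neuron markers, 9 were called higher in both CxH and MH, and their summed level was 2034 to 2156 RPM in the Ids-ko libraries and 403 to 450.2 in the wt libraries. Of 20 midbrain and diencephalon markers 15 were in the table and 14 of these were called lower in CxH and in MH, with sums of 44.6 to 62.3 RPM against 585 to 659.7. Striatal markers, 10 of 11 in the table, summed to 1039.7 to 1222 RPM in the Ids-ko and 478 to 491 in the wt libraries, and hippocampal markers, 6 of 8, to 136 to 143 and 84.7 to 113. En1 was at 0 reads in MH, and Hcrt and Slc6a4 at 3 or fewer in CxH and MH. Area markers thus followed the genotype labels and not the area labels, and in the ratios in Cx and in M genotype and the area composition of the tissue cannot be told apart. The pairs close to each other in these markers, CxH with MH and CxWT with MWT, differed in Ids, with log2 ratios of -1.44 ± 0.023 and 1.19 ± 0.025. An exchange of libraries or of columns is therefore possible and was not tested, and it would change what each ratio compares. Libraries are named by their labels throughout, and Ids-ko, wt, Cx and M below stand for labels. In pooled tissue, fewer cells of a type and less RNA per cell cannot be told apart either.

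The pore-forming members share one sequence feature that the rule did not use. In GENCODE vM1, every one of the 59 pore-forming members encodes a selectivity filter signature, and none of the 13 accessory members does. Its 5 residues were Thr or Ser, then Val, Ile, Leu or Thr, then Gly, an aromatic residue or Leu, and Gly. All 9 two-pore members carry it at 2 places. The commonest forms were TVGYG in 18 members and TIGYG in 16, and SVGFG was found in 5 members, Kcnh1, Kcnh2, Kcnh3, Kcnh4 and Kcnh7. The coding windows below show this feature in Kcnc2, Kcng4, Kcns1, Kcnv1, Kcnh3, Kcnj4 and Kcnj5. Each of these genes held the highest or lowest ratio of its class in Cx, in M or in both. Kcnc2, Kcng4 and Kcnj5 were called lower in both areas and the others higher in both. Each window has 60 bases, 5′ to 3′ on the coding strand, with the 15 bases of the signature in capitals.
Kcnc2: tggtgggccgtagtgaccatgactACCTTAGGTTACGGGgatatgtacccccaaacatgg
Kcng4: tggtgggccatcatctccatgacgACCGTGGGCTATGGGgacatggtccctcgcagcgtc
Kcns1: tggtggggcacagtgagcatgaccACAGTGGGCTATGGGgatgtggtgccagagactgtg
Kcnv1: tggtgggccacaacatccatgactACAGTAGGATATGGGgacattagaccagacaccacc
Kcnh3: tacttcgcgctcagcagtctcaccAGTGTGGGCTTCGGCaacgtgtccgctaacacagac
Kcnj4: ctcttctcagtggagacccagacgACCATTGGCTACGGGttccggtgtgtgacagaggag
Kcnj5: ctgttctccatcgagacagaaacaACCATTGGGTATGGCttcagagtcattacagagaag

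On NCBIM37 (mm9) the windows lie at chr10:111893261-111893320 on the plus strand (Kcnc2), chr8:122149789-122149848 on the minus strand (Kcng4), chr2:163990569-163990628 on the minus strand (Kcns1), chr15:44940814-44940873 on the minus strand (Kcnv1), chr15:99063336-99063395 on the plus strand (Kcnh3), chr15:79315776-79315835 on the minus strand (Kcnj4) and chr9:32130123-32130182 on the minus strand (Kcnj5), all in coding exons. The window of the silent subunit gene Kcng4 matched that of Kcnv1 at 42 of 60 bases and that of Kcns1 at 41. It matched those of Kcnc2 and Kcnh3, which are not silent subunits, at 39 and 32. The windows of the inward rectifiers Kcnj4 and Kcnj5 matched at 41 of 60, although these 2 genes had ratios of opposite sign. Reads were counted by the authors only where they aligned to a single gene.

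Of the 72 members, 19 were called higher and 11 lower in CxH than in CxWT, or 26.4% and 15.3%. Among all 12700 genes the same test called 9.46% higher and 11.5% lower in Cx. In M 22 members were called higher (30.6%) and 8 lower (11.1%), beside 12.3% and 12.7% of all genes. The median log2 ratio of the members was 0.11 in Cx and 0.30 in M, where that of all genes was -0.093 and -0.066. The median size of the ratio, without its sign, was 0.59 in Cx and 0.57 in M for the members and 0.34 and 0.40 for all genes. Corrected for the GC content and length of the transcripts (hereafter the GC and length correction), the members called in M became 17 higher and 14 lower, beside 8.39% and 9.999% of all genes, and the median in M 0.076, beside -0.057. The correction left 25 of the 30 calls in Cx and 23 of 30 in M. In Cx 17 members were then called higher and 11 lower, beside 8.26% and 9.05% of all genes. The correction moved 2 of the 30 called ratios in Cx and 6 of 30 in M by over 1.5 times and turned 1 more in M. Of the 41 ratios not called in each area that could be corrected, it moved 21 in Cx and 21 in M by over 1.5 times and turned 3 and 7 more.

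The members called higher in both areas were 15, among them Kcnab2, Kcnf1, Kcng1, Kcnh1, Kcnh3, Kcnh4, Kcnh7, Kcnj4, Kcnmb4, Kcnq5, Kcns1, Kcnt2 and Kcnv1. The genes Kcnc2, Kcng4, Kcnip1, Kcnip4, Kcnj5, Kcnj10 and Kcnj16 were called lower in both. These 22 are 30.6% of the members, and 13.2% of all genes were called in both areas. No member was called in opposite directions, as were 0.543% of all genes, so that 0 of 72 is near the background. Of the members 61 of 72 had ratios of the same sign in Cx and M (84.7%, beside 72.8% of all genes). In 35 members both Ids-ko libraries lay above both wt libraries and in 23 both lay below, an order held by 24.3% and 36.9% of all genes. The remaining 14 were mixed.

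A fit of genotype over all 4 libraries with area as a block (edgeR's quasi-likelihood test, adjusted p under 0.05 and a log2 ratio of 0.7 or more in size) called 18 members higher and 8 lower, beside 7.47% and 7.91% of all genes. All 22 members called in both areas were among them. They had been picked by their ratios in these same libraries, so this adds no separate support. Kcnv1 had 2.55 (adjusted p = 0.000268), Kcnh3 3.14 (adjusted p = 0.000335) and Kcnj5 -3.10 (adjusted p = 0.000748). This fit takes the areas as replicates, though both came from the same mice, so it does not test the conditions either. It has 1 residual degree of freedom and rests on the same libraries and labels.

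**Figure D1:**
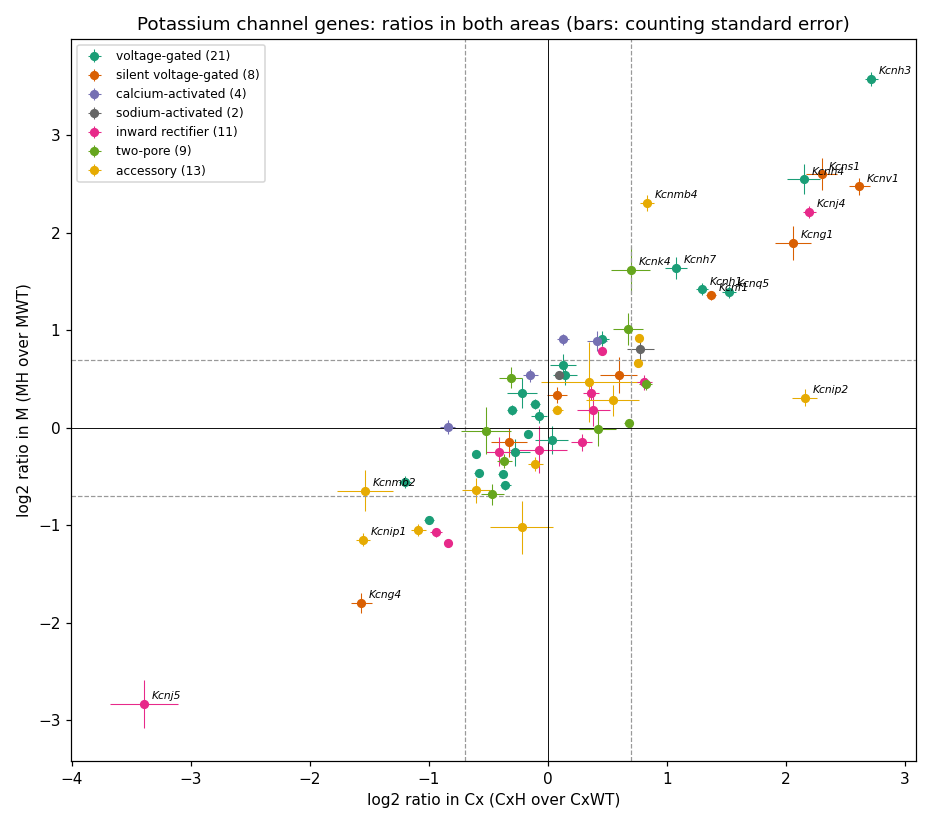
The log2 ratio of the potassium channel genes described here in Cx (x axis) and M (y axis), coloured by class, with counting standard errors as bars and dashed lines at the call threshold of 0.7 in either direction. Most genes called in both areas lie in the upper right, from Kcnt2 up to Kcnh3 at 2.72 and 3.58, and Kcnj5 stands alone at the lower left at -3.39 and -2.83.

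Among voltage-gated pores the Kcnh genes (ether-a-go-go type channels) held the highest ratios. Of 6 measured, 4 were called higher in both areas, beside 6.23% of all genes, Kcnh2 was called lower in Cx, and Kcnh5 was called in neither. Kcnh3, a forebrain channel of this family, lies on chromosome 15 from 99055292 to 99073248 and had 174 RPM in CxH and 176 in MH, and 26.4 in CxWT and 14.7 in MWT. Counting intervals (95%, exact Poisson) were 169.5 to 178 RPM in CxH and 24.7 to 28.2 in CxWT, so both Ids-ko libraries were far above both wt libraries. The log2 ratio of Kcnh3 reached 2.72 ± 0.052 in Cx and 3.58 ± 0.072 in M, the highest of the members in either area. Between the wt libraries themselves it was 0.84 ± 0.085, and between the Ids-ko libraries -0.021 ± 0.025.

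Kcnh4, its close relative, had 17.5, 3.96, 20.0 and 3.42 RPM, where 4 values in a row are here and below in the order CxH, CxWT, MH, MWT. Its ratios were 2.15 ± 0.14 in Cx and 2.55 ± 0.15 in M. Kcnh1, which encodes the founding ether-a-go-go channel of mammals, had 74.5, 30.3, 69.1 and 25.8 RPM and ratios of 1.30 ± 0.053 and 1.42 ± 0.060. Kcnh7, a member of the erg group, had 21.6, 10.3, 22.1 and 7.08 RPM and ratios of 1.07 ± 0.092 and 1.64 ± 0.11. In these 3 genes the lower Ids-ko library was above the higher wt library. Kcnh2, the erg channel best known for repolarising the heart, went the other way, with 31.0, 71.4, 25.6 and 37.8 RPM. Its ratio passed the threshold in Cx, at -1.20 ± 0.051, and fell short of it in M, at -0.56 ± 0.064. After the GC and length correction its M ratio was -1.34. Kcnh5 had 12.2, 10.98, 14.3 and 9.81 RPM and ratios of 0.15 and 0.54. Only Kcnh5 among the 6 has the signature TIGFG in place of SVGFG.

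The Kcnq genes encode channels of the muscarine-sensitive M-current, which restrains repetitive firing. Kcnq5 had 62.2, 21.7, 63.7 and 24.2 RPM and was called higher in both areas, with ratios of 1.52 ± 0.061 and 1.40 ± 0.062. Kcnq3 had 33.0, 24.2, 30.8 and 16.3 RPM, a ratio of 0.45 ± 0.065 in Cx below the threshold and 0.92 ± 0.079, past it, in M. In both genes the Ids-ko libraries were above the wt libraries. Kcnb2, a delayed rectifier, had 9.92, 9.07, 12.3 and 7.88 RPM and was called in neither area (0.13 and 0.64).

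Of the 8 silent subunit genes, which modify delayed rectifier channels, 4 were called higher and 1 lower in both areas, beside 6.23% and 6.46% of all genes. The 4 were Kcnv1, Kcns1, Kcng1 and Kcnf1. Kcnv1, a silent subunit of brain, lies on chromosome 15 from 44937830 to 44946480 and had 55.4 RPM in CxH and 59.0 in MH, and 9.04 in CxWT and 10.6 in MWT. Its ratio was 2.61 ± 0.088 in Cx and 2.48 ± 0.088 in M. For Kcns1 the levels were 21.1, 4.28, 18.5 and 3.04 RPM and the ratios 2.30 ± 0.13 and 2.60 ± 0.16. Kcng1 had 13.5, 3.24, 10.6 and 2.83 RPM and ratios of 2.06 ± 0.15 and 1.90 ± 0.18. Kcnf1, the only Kcnf gene, had 124, 48.1, 116 and 45.4 RPM and nearly the same ratio in both areas, 1.37 ± 0.041 and 1.36 ± 0.045. In all 4 the groups were well apart.

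Kcng4 was the silent subunit called lower. It lies on chromosome 8 from 122147754 to 122159580 and had 9.40 RPM in CxH and 6.96 in MH, and 27.9 in CxWT and 24.2 in MWT, with ratios of -1.57 ± 0.089 and -1.80 ± 0.10. Thus Kcng1 and Kcng4, of the same subfamily, were called in opposite directions in each area. Kcng2, Kcns2 and Kcns3 were not called in Cx or M and had ratios between -0.33 and 0.59 in Cx and between -0.15 and 0.54 in M. The upper values are those of Kcng2, which the GC and length correction changed to 0.047 and -0.39.

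The Kcna genes encode low-threshold channels of axons. None of the 6 was called in either area, as was the case for 67.3% of all genes, and 3 of them varied the least of all members across the libraries. Kcna1 had 134 RPM in CxH and 138 in MH, and 150.2 in CxWT and 145 in MWT, so its highest library was 1.12 times its lowest. For Kcna5 this factor was 1.12 and for Kcna4 1.16. Kcna2, with 56.1, 69.1, 56.6 and 49.9 RPM, had ratios of -0.30 ± 0.043 in Cx and 0.18 ± 0.049 in M. Kcna6 had 78.6, 102, 68.3 and 95.1 RPM and was lower in both Ids-ko libraries, with ratios of -0.38 and -0.48 below the threshold. With the GC and length correction the M ratios of Kcna3 and Kcna6 were -0.71 and -0.79. Over all members, 22 varied by less than 1.5 times across the 4 libraries.

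The Kcnc genes encode channels that close fast and serve high-frequency firing. Kcnc2, typical of fast-spiking interneurons and thalamic neurons, lies on chromosome 10 from 111708179 to 111903360 and had 46.6 RPM in CxH and 53.0 in MH, and 93.1 in CxWT and 102 in MWT. It was called lower in both areas, with ratios of -0.998 ± 0.043 and -0.95 ± 0.042. Kcnc1 had 172, 261, 168 and 203 RPM and ratios of -0.60 ± 0.023 and -0.27 ± 0.026, and after the GC and length correction -0.86 and -0.92. Kcnc4 was not called (-0.11 and 0.24), and the same correction gave -0.33 and -0.17, which turned its M ratio. The GABA neuron markers, 7 of 7 in the table, summed to 652, 917, 609 and 957 RPM, with 3 called higher and 1 lower in Cx and 2 higher and 3 lower in M. Their part in the Kcnc values was not tested.

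The Kcnd genes, which encode A-type channels that delay firing, gave no call among 3 in Cx or M. Of all genes 67.3% were called in neither, so that this is near the background. Kcnd2 had 50.9, 65.2, 51.9 and 78.2 RPM and ratios of -0.36 ± 0.045 and -0.59 ± 0.045, and Kcnd3 had 60.0, 89.9, 68.2 and 94.5 RPM and ratios of -0.58 ± 0.040 and -0.47 ± 0.040. In both genes the wt libraries were above the Ids-ko libraries. Kcnd1 was lower in level per length, at 1.25 RPM per kb on average, beside 11.9 and 10.9 for the others.

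The KChIP genes Kcnip1 to Kcnip4, whose calcium-binding products attach to the Kcnd channels, divided. Kcnip1 had 19.5 RPM in CxH and 20.3 in MH, and 57.3 in CxWT and 45.05 in MWT, with ratios of -1.55 ± 0.062 and -1.15 ± 0.066. Kcnip4 had 20.8, 44.3, 25.8 and 53.4 RPM and ratios of -1.09 ± 0.063 and -1.05 ± 0.059, which the GC and length correction reduced to -0.58 and -0.46. Kcnip3, which also acts as a transcription repressor, had 124, 73.5, 107 and 67.8 RPM and ratios of 0.76 ± 0.036 and 0.66 ± 0.040, called in Cx and, with TMM scaling (0.72), in M as well, while the GC and length correction left 0.62 in Cx, under the threshold. Kcnip2 set CxWT apart from the other 3 libraries, with 1087, 213, 662 and 414 reads or 28.2, 6.34, 17.7 and 14.3 RPM. Its ratio was 2.16 ± 0.11 in Cx but 0.31 ± 0.090 in M, and -1.17 ± 0.12 between CxWT and MWT. The difference between these 2 areas was not tested, as there was 1 library each.

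The Kcnab genes encode cytoplasmic beta subunits of the Kcna channels. Kcnab2 had the highest level per length of all members, 95.1 RPM per kb on average over the 4 libraries, and its exons overlap the gene Gm16334 on the same strand. Its levels were 535 RPM in CxH and 419 in MH, and 315 in CxWT and 222 in MWT. Ratios were 0.76 ± 0.017 in Cx and 0.92 ± 0.021 in M, and 0.52 and 0.40 after the GC and length correction, under the threshold. Kcnab1 (0.079 and 0.19) and Kcnab3 (-0.11 and -0.37) were not called.

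Kcnma1, the pore of the large-conductance calcium-activated channel, had 49.0, 44.9, 58.6 and 31.2 RPM and was called higher in M only, at 0.91 ± 0.057, with 0.12 ± 0.050 in Cx. Its accessory subunit Kcnmb4, the form typical of neurons, lies on chromosome 10 from 115854917 to 115910934 and had 52.3 RPM in CxH and 67.3 in MH, and 29.4 in CxWT and 13.6 in MWT. The MWT library was the low one, so that the ratio was 0.83 ± 0.056 in Cx, 2.31 ± 0.078 in M and 1.11 ± 0.086 between the wt libraries. Kcnmb2, the inactivating accessory subunit, was scarce, with 53, 134, 85 and 103 reads, and lower in Cx at -1.53 ± 0.23, while M gave -0.65 ± 0.21. The small-conductance Kcnn genes, which shape the afterhyperpolarisation, gave 1 call of 3 in each area, lower in Cx and higher in M. Of all genes 11.5% were called lower in Cx and 12.3% higher in M. Kcnn3 had 20.8, 37.3, 25.5 and 25.4 RPM, with CxWT highest and a Cx ratio of -0.84 ± 0.065, and its M ratio was 0.0045 ± 0.071. Kcnn1 had 19.8, 14.9, 16.9 and 9.12 RPM and ratios of 0.41 ± 0.083 and 0.89 ± 0.11, called in M, where the GC and length correction left 0.43. Kcnn2 was not called (-0.15 and 0.54).

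The sodium-activated channel gene Kcnt2 had 11.97, 6.99, 14.1 and 8.05 RPM and ratios of 0.78 ± 0.12 and 0.80 ± 0.11, called in both areas, and 1.41 and 1.19 after the GC and length correction. Kcnt1, with 86.5, 81.1, 90.7 and 62.2 RPM, was the more abundant per length (13.6 against 1.80 RPM per kb) and was called in neither (0.092 and 0.54). The same correction turned the direction of the Kcnt1 ratio in Cx and reduced the one in M.

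The inward rectifiers held both directions, with 2 of 11 called higher and 3 lower in each area, where 9.46% and 11.5% of all genes were called in Cx and 12.3% and 12.7% in M. Kcnj4, a strong rectifier of forebrain neurons, lies on chromosome 15 from 79314148 to 79335671 and had 127 RPM in CxH and 105 in MH, and 27.7 in CxWT and 22.7 in MWT. Its ratio was 2.20 ± 0.052 in Cx and 2.22 ± 0.061 in M, and both Ids-ko libraries lay far above both wt libraries. Kcnj5, a subunit of the G protein-gated channels, lies on chromosome 9 from 32122368 to 32151822 and had the lowest ratios of all members. It had only 28, 257, 40 and 221 reads, or 0.727, 7.64, 1.07 and 7.63 RPM, with counting intervals of 0.483 to 1.05 RPM in CxH and 6.74 to 8.64 in CxWT. Its ratios were -3.39 ± 0.29 and -2.83 ± 0.25. The other G protein-gated subunits went differently. Kcnj3 had ratios of 0.36 and 0.36 and was not called, and Kcnj9 had 107, 78.1, 99.0 and 57.2 RPM and ratios of 0.45 ± 0.036 and 0.79 ± 0.043, called in M, where the GC and length correction left 0.31.

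Kcnj10, the main potassium channel of astrocytes, and Kcnj16, which joins it in heteromers, were called lower in both areas. Kcnj10 lies on chromosome 1 from 174271341 to 174304216 and had 230.0 RPM in CxH and 181 in MH, and 413 in CxWT and 412 in MWT, with ratios of -0.84 ± 0.020 and -1.19 ± 0.022. Kcnj16 had 35.6, 68.3, 38.5 and 81.0 RPM and ratios of -0.94 ± 0.049 and -1.07 ± 0.048, of which the one in Cx was -0.64 after the GC and length correction. The wt libraries were nearly equal in Kcnj10. All 8 astrocyte markers were in the table and summed to 3907, 2837, 3154 and 3548 RPM, with 2 called higher and 1 lower in Cx and 2 lower in M. Aqp4, the astrocyte water channel, had ratios of -0.80 and -1.30, and Gfap 1.11 and -1.13. Slc1a2, a glutamate transporter, was called higher in Cx with 0.84 and had 0.43 in M, and the other 5 markers had ratios within the threshold in both areas. The 8 oligodendrocyte markers summed to 4807, 9170, 5004 and 7296 RPM, with 7 called lower in Cx and 4 in M. The part of these cell types in the Kcnj10 and Kcnj16 values was not tested.

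Kcnj11, the pore of the ATP-sensitive channel, had 33.4, 19.1, 26.3 and 19.0 RPM and was called higher in Cx at 0.81 ± 0.070, with 0.47 ± 0.077 in M and 0.59 in Cx after the GC and length correction. Kcnj8, its relative of pericytes and vascular muscle, was not called (0.38 and 0.18), and the 8 endothelial and mural markers summed to 210.0, 157, 176 and 152 RPM, with 1 called higher in Cx and none in M. Kcnj2, Kcnj12 and Kcnj14 had ratios within -0.41 and 0.28 in both areas.

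Of the 9 two-pore genes, which carry leak currents, 1 was called higher in Cx and 2 in M, and none lower, where 9.46% and 12.3% of all genes were called higher, so that these counts are near the background. Kcnk2, a mechanosensitive and anaesthetic-sensitive leak channel, had 52.3, 29.6, 42.8 and 31.4 RPM and ratios of 0.82 ± 0.056 and 0.45 ± 0.060. Kcnk1 had the highest level per length of this subfamily, 30.2 RPM per kb, with CxH highest at 90.2 RPM and the other libraries between 56.4 and 66.7. Its ratios were 0.68 ± 0.041 in Cx, just short of the threshold, and 0.050 ± 0.044 in M, and TMM scaling gave 0.77 in Cx, past it. Kcnk4 had 221, 119, 171 and 43 reads and ratios of 0.70 ± 0.16 and 1.62 ± 0.25, the former also just short, with 0.79 under TMM scaling and 0.39 after the GC and length correction. Kcnk12 had 389, 213, 271 and 104 reads and ratios of 0.67 ± 0.12, not called, and 1.01 ± 0.17. With TMM scaling its Cx ratio was 0.77 and passed, and after the GC and length correction it was 0.16. Its transcript has the highest GC content of the members, 70.2%, and the same correction turned the direction of its M ratio, to -0.33. The acid-sensitive Kcnk3 and Kcnk9 were not called, with ratios of -0.37 and -0.34 for Kcnk3 and of -0.31 and 0.52 for Kcnk9. With the GC and length correction the M ratio of Kcnk3 was -0.93. Kcnk13, which in brain marks microglia, had 10.3, 14.3, 8.35 and 13.4 RPM and ratios of -0.47 ± 0.098 and -0.68 ± 0.11, not called (though -0.98 in M after the same correction), beside a sum of 310.3, 194.9, 245 and 244 RPM over 8 microglia markers, 4 of them called higher in Cx and 2 lower in M. The part of microglia and vascular cells in these values was not tested.

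The Kcne genes, accessory subunits with a single membrane span, were scarce. Kcne4, with 58, 59, 47 and 74 reads, was called lower in M, at -1.02 ± 0.27, with -0.22 ± 0.27 in Cx. Kcne1l, with 271, 360, 238 and 288 reads, was below the threshold in both areas, at -0.61 and -0.64, and past it, at -0.85 and -0.90, with the GC and length correction. Kcne2, which is abundant in choroid plexus, had 112, 67, 212 and 135 reads and was higher in both M libraries than in both Cx libraries. The 8 choroid plexus markers, all in the table, summed to 584, 145, 635 and 266 RPM, with 6 called higher and 1 lower in Cx and 5 higher and 1 lower in M, and their part in Kcne2 was not tested. Kcnrg, a soluble regulator of the Kcna channels, had 32, 22, 34 and 19 reads and ratios of 0.34 ± 0.40 and 0.47 ± 0.41, too few reads to place.

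**Figure D2:**
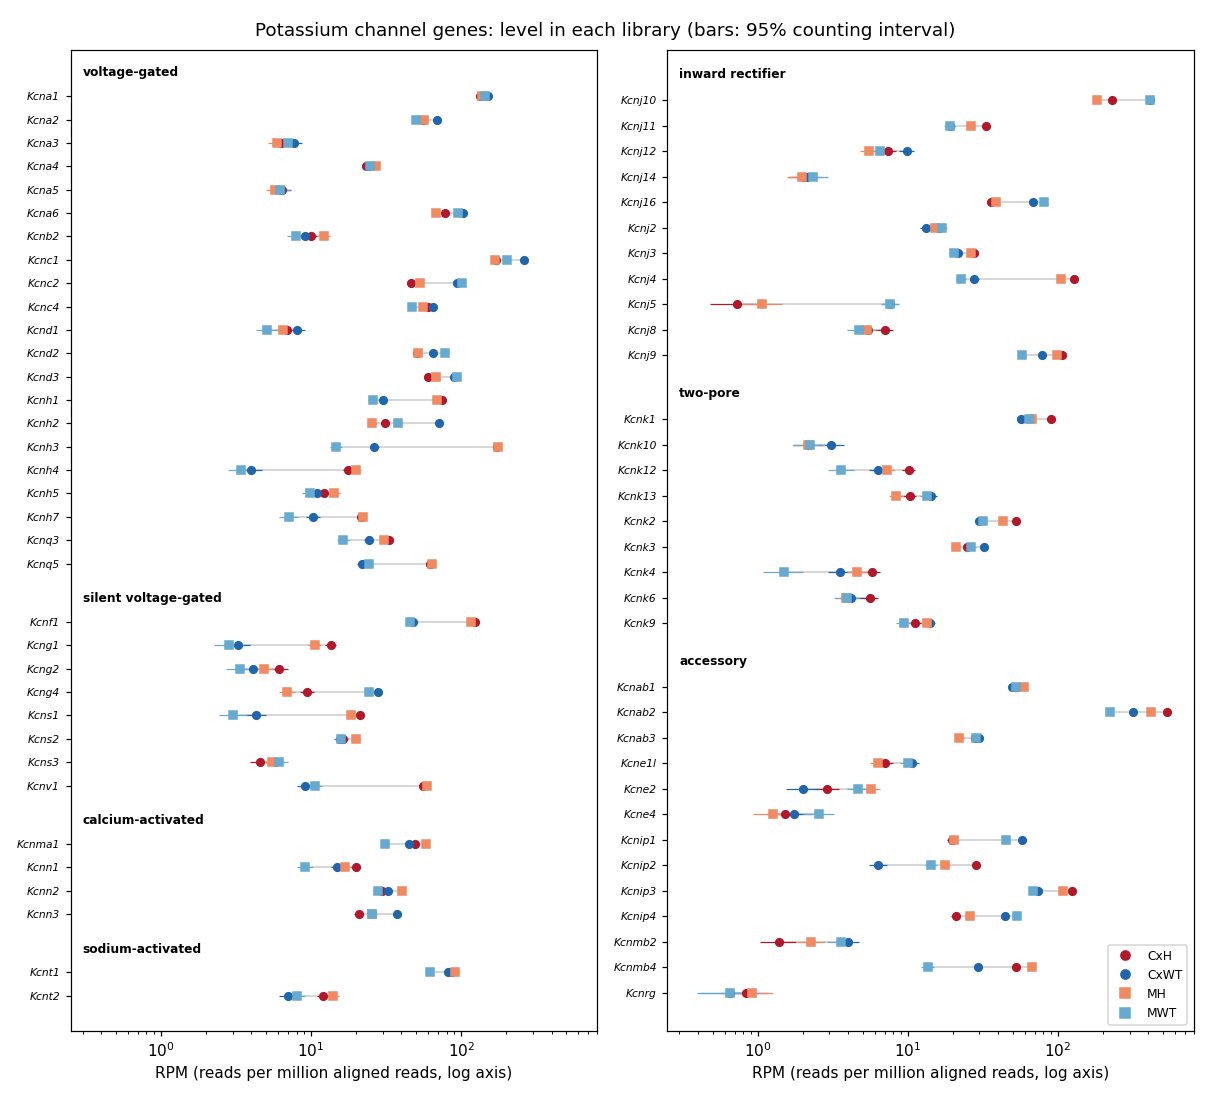
The level of the potassium channel genes described here in the 4 libraries, in RPM on a log axis, grouped by class, with 95% counting intervals as bars. Kcnh3, Kcnv1, Kcns1, Kcnh4 and Kcnj4 show the Ids-ko libraries (red and orange) to the right of the wt libraries, Kcnj5 shows the opposite, and Kcna1, Kcna4 and Kcna5 lie nearly on one point.

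By subfamily, the Kcna letter, which includes Kcnab, held 920.1, 755, 802 and 630.1 RPM and the Kcnj genes 594, 665, 505 and 649.9 RPM. Kcna was the largest in CxH, CxWT and MH, and Kcnj in MWT. The summed Kcnh level was 330.4 and 327 RPM in the Ids-ko libraries and 153 and 98.6 in the wt libraries. That of the single Kcnf gene was 124 and 116 against 48.1 and 45.4. Kcnd ran the other way, with 118 and 127 against 163 and 178. All members together gave 3609, 3209, 3351 and 2771 RPM. A sum over unequal genes is led by its most abundant, so it does not count genes that moved.

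**Figure D3:**
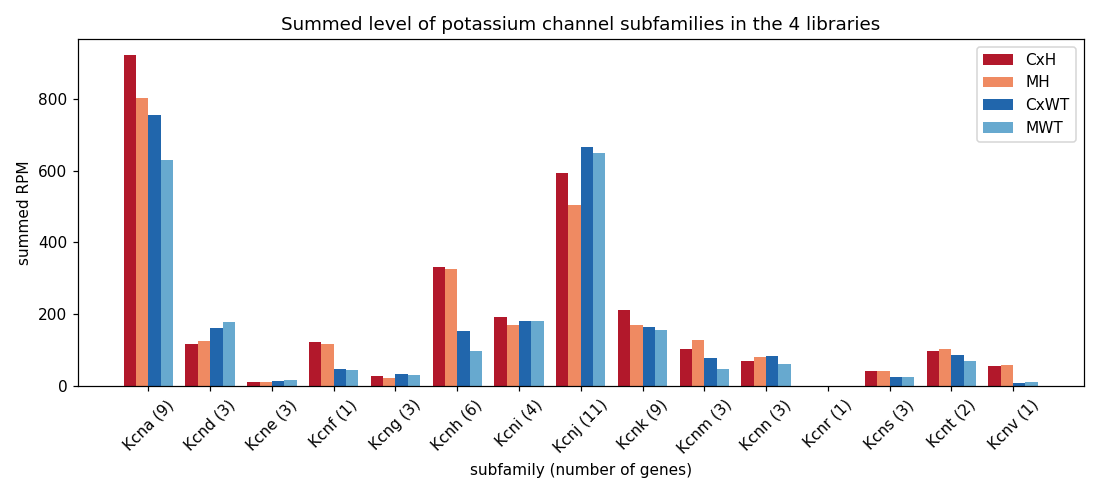
Summed RPM of the subfamilies named on the x axis in the 4 libraries, with the number of genes in brackets. Kcnh, Kcnf and Kcnv are higher in both Ids-ko libraries, and Kcnd and Kcnj are higher in both wt libraries.

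Counted by gene, Kcnh had 5 of 6 called in Cx and 4 of 6 in M, and Kcni 4 of 4 and 2 of 4, while Kcna had 1 of 9 in each area, where 9.46% of all genes were called higher and 11.5% lower in Cx (M 12.3% and 12.7%). The median log2 ratio of the Kcnh genes was 1.185 in Cx and 1.53 in M, and that of the silent subunits 0.98 and 0.95 (0.69 in each after the GC and length correction). For Kcna it was -0.11 and -0.069 (-0.25 in M after the GC and length correction) and for Kcnd -0.36 and -0.47. For Kcnj it was 0.28 in Cx and -0.15 in M, of which that in M turned to 0.071 with the correction. For Kcnk it was 0.42 in Cx, reduced to 0.16 by the correction, and 0.050 in M. These are descriptions, and no subfamily was tested as a set.

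**Figure D4:**
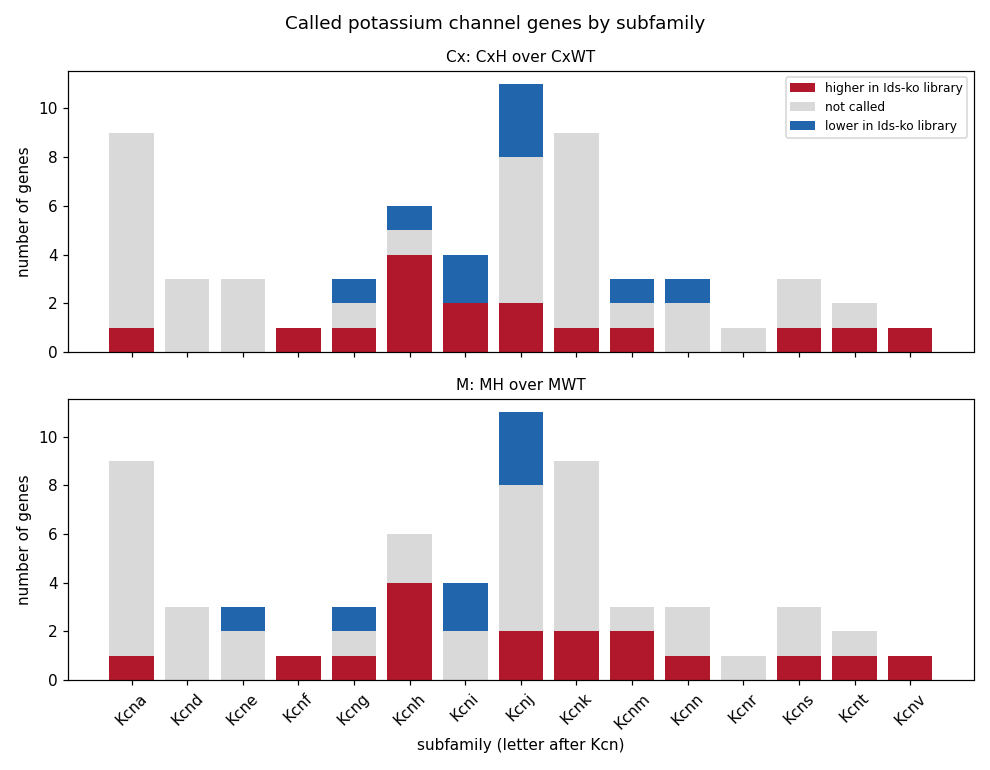
The number of genes in the subfamilies named on the x axis that were called higher (red), called lower (blue) or not called (grey) in Cx (upper panel) and in M (lower panel). The Kcnh bar is mostly red in both panels, and the Kcna, Kcnd and Kcnk bars are mostly grey.

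Between libraries labelled as the areas of one genotype, which were close in the area markers and differed in Ids, fewer members were called. In CxH vs. MH none was higher and 2 were lower, beside 2.43% and 1.06% of all genes. They were Kcne2, with -0.96 ± 0.17, and Kcnmb2, with -0.72 ± 0.25. In CxWT vs. MWT 9 members were higher and 2 lower, beside 5.43% and 2.11% of all genes. The 9 included Kcnh2 (0.92 ± 0.053), Kcnh3, Kcnk4 (1.25 ± 0.26), Kcnk12 (0.82 ± 0.17), Kcnmb4 and Kcnn1 (0.71 ± 0.11), and the 2 were Kcne2 (-1.23 ± 0.22) and Kcnip2. The GC and length correction left 4 of these 11 calls, 2 higher and 2 lower, beside 1.65% and 1.45% of all genes. Kcnk12 became -0.38. Across the 71 members with a GC value, Spearman's correlation of the ratio with GC content was 0.58 in CxWT vs. MWT and 0.55 in CxH vs. MH, but 0.16 in Cx and 0.25 in M. This is a description across genes of the same libraries.

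The pairs that differ in both labels, which share libraries with the comparisons above, were computed because of the Ids counts. CxH vs. MWT gave 25 members higher and 9 lower, beside 15.6% and 15.1% of all genes. The GC and length correction left 19 of these 34 calls and gave 18 higher and 13 lower, beside 8.18% and 8.18% of all genes. MH vs. CxWT gave 15 higher and 12 lower, beside 6.41% and 8.89%. In the same order Kcnh3 had ratios of 3.56 ± 0.072 and 2.74 ± 0.052, and Kcnj5 ratios of -3.39 ± 0.29 and -2.84 ± 0.25. In no pair of libraries were 29 of the 72 members called (40.3%, beside 58.2% of all genes).

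A list of 20 genes whose products work with potassium channels or carry related currents was examined alongside, and 19 of them were in the table. In Cx 2 were called higher and 5 lower, and in M 3 higher and 1 lower, where 9.46% and 11.5% of all genes were called in Cx and 12.3% and 12.7% in M. Of the Hcn genes, which encode the hyperpolarisation-activated channels related to the Kcnh proteins, Hcn4 was called lower in both areas, with 99, 470, 127 and 250 reads and ratios of -2.44 ± 0.16 and -1.35 ± 0.16. Hcn2 had ratios of -0.32 and -0.016, and Hcn3 -0.99 ± 0.074 and -0.70 ± 0.087, called in Cx. Dlg4, a scaffold that clusters Kcna channels at synapses, had 613, 283, 463 and 229 RPM and ratios of 1.11 ± 0.018 and 1.02 ± 0.021. Cntnap2 (-0.87 and -0.31) and Cntn2 (-0.71 and -0.16), which hold Kcna channels beside the nodes of myelinated axons, were called lower in Cx. Dpp6 and Dpp10, partners of the Kcnd channels, and Amigo1, partner of delayed rectifiers, were called in neither area. Abcc8, the sulfonylurea receptor that joins Kcnj11, was called higher in M at 1.39 ± 0.099, with 0.32 ± 0.080 in Cx. Lrrc26 had 59, 30, 69 and 12 reads and was called higher in both areas (0.78 ± 0.32 and 2.16 ± 0.45), and Lrrc55, of the same group of large-conductance channel partners, was called lower in Cx (-0.93, with -0.53 in M).

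Exons of 9 members, among them Kcna6, Kcnab2, Kcnab3, Kcnd3, Kcnh7, Kcnj3, Kcnmb4 and Kcnq5, overlap those of another gene, in the named genes on the opposite strand except for Kcnab2. Whether the counting used strand is not given in the sources used here, so these counts are less certain.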

How the data were processed

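Messenger RNA purified from pools of 7 mice was sequenced by the authors on a SOLiD 3 Plus instrument, aligned to NCBI37/mm9 with PASS 2.10 and assigned to single genes, keeping those with over 50% of the gene covered. The deposited values are raw counts of reads per gene by Entrez ID. The gene annotation is not given in the sources used here. The members, lists and tests were chosen with earlier results of these data known.

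Symbols were attached by Entrez ID, for 12690 of 12700 genes. The aligned reads that the study lists for each library were the divisor of the counts. The ratio test was the likelihood ratio test on Poisson counts that the study ran with DEGseq 1.18, run here on every gene, with its thresholds, and 0 counts entered ratios as 1. Standard errors and exact Poisson intervals cover counting error. Every member may be named, but a few genes are not reported here, though they entered the counts, sums and medians. Full values went to members called in both areas, to the 5 highest and 5 lowest ratios in each, to the most abundant member per length of each letter, and to those called in CxH vs. MH or CxWT vs. MWT.

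Gene positions, and the length and GC content of the longest protein-coding transcript, are those of GENCODE vM1 and were found for 71 members. Lengths of 3 members (Kcng2, Kcnk9 and Kcnq3) lack a 3′ UTR. Windows around the filter signature were read from the same transcripts and checked against the genome.

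Alternatives were column totals, TMM factors (edgeR 4.0.16), DESeq2 1.42.0 size factors, a log2 threshold of 1, a minimum of 100 reads, p-values adjusted after Benjamini-Hochberg, 0.5 added to counts, an edgeR exact test that assumes a biological coefficient of variation of 0.1 or 0.2, a correction for GC content and length, and, added after seeing the data, the quasi-likelihood test of genotype over all 4 libraries with area as a block. The steps were tested on simulated data. Software was R 4.3.3 and Python 3.11.15 with scipy 1.17.1, pandas 2.3.3, numpy 2.4.6 and matplotlib 3.10.9.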

Additional observations from a re-analysis of the deposited data

How the results depend on the processing

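With 1 library of pooled RNA per condition, depth limits only the scarce members, and variation between mice or pools was not measured. A log2 threshold of 1 left 18 members called in Cx, 12 higher and 6 lower, beside 5.44% and 5.59% of all genes. It left 5 in CxWT vs. MWT, beside 1.53% of all genes higher and 0.795% lower. It left 0 in CxH vs. MH, beside 0.858% and 0.268%, so that 0 of 72 is near the background. In the latter pair, 1 call was left each by a minimum of 100 reads, by the exact test with an assumed variation of 0.2 and by the correction for GC content and length. Each was a call lower, beside 0.701%, 0.315% and 0.924% of all genes in this order. That correction also gave 14 members lower in M, beside 9.999% of all genes. It gave 4 called in CxWT vs. MWT, beside 1.65% of all genes higher and 1.45% lower. The median log2 ratio in M was then 0.076, and the M ratio of Kcnk12 was reversed, -0.33. The median in Cx was 0.20 with TMM factors and 0.20 with DESeq2 size factors, where that of all genes was 0.00025 and -0.0060. With TMM factors the balance of all calls in Cx turned from 1201 higher and 1457 lower to 1447 and 1135, while the members gave 22 and 10. Other counts of members called in Cx and in M stayed within 1.5 times of those reported. Of 82 ratios of named members in Cx and M, 67 kept their side of the threshold when it was set to 1 and 76 or more under each other setting, except the minimum of 100 reads (80 of 80) and the correction for GC content and length, with 63 of 80 (7 passed it newly, 9 no longer did and 1 turned). The cause was not tested. A fit of genotype over all 4 libraries with area as a replicate block, chosen after seeing the data, called 26 members. Of these 18 were higher and 8 lower, beside 7.47% and 7.91% of all genes.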
